A study of Mus musculus with 6 samples.

Results

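Adenylyl cyclases and the G protein subunits that stimulate them were followed through 9 genes: Adcy1, Adcy2, Adcy3, Adcy5, Adcy8, Adcy9, Gnal, Gnas and Gng7. They were chosen by gene symbol, with earlier results of these data known. Every probe set whose platform annotation gave 1 of these symbols was taken. This came to 25 of the 45037 probe sets on the array that are not controls. A probe set is a group of short oligonucleotides read together as 1 transcript level. Of the 25, 18 had a mean log2 level of at least 4 over all 6 arrays and entered the tests, together with 22877 probe sets in all, and each of the 9 genes kept at least 1.

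RNA levels had been measured in dissected amygdala 2 h after fear extinction training, in 3 mice on a zinc diet (title numbers 3, 7 and 10) and 3 mice on a control diet (title numbers 1, 9 and 11). All 6 were male 129S1/SvImJ (S1) mice of 8 to 10 weeks, inbred and described as impaired in learning fear extinction, with 1 Affymetrix Mouse430_2 array each, and both diet groups had been through the extinction training, so no untrained group was compared. The labels call the diet Zn or ZnR and leave its zinc content open. The name zinc diet therefore stands for neither a supplement nor a restriction of zinc relative to the control diet, since the direction is unknown here. The series concerns histone deacetylase inhibition, dopamine and lasting fear inhibition, and the data set compares the diets. Besides the diet, levels were followed along the number in each sample title, whose meaning the labels do not give. Pairwise correlations between arrays over the probe sets tested ran from 0.991 to 0.996, and array medians from 4.04 to 4.09. All 5 pan-neuronal markers were tested, with mean levels of 12.67 to 12.69 in zinc diet mice and 12.65 to 12.73 in control diet mice, and all 11 markers of inhibitory and central amygdala neurons were tested too.

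Adenylyl cyclases are membrane enzymes that make cyclic AMP from ATP, and they integrate signals from G proteins and calcium. A receptor coupled to a stimulatory G protein releases the alpha subunit, which is Gs (Gnas) in most cells and Golf (Gnal) in olfactory neurons and striatal spiny neurons, and the alpha subunit activates the cyclase. In the striatum, Golf with a gamma-7 subunit (Gng7) and the cyclase Adcy5 carries the signal of dopamine D1 and adenosine receptors to protein kinase A. Adcy1 and Adcy8 are stimulated by calcium and calmodulin and are known for their part in synaptic plasticity and memory.

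RefSeq promoter windows on GRCm38.p6 matched 7 of the 9 genes, with 12 start sites between them, and the 250 bases before each start were searched on both strands. The cyclic AMP response element TGACGTCA was in 0 of the 12 windows, against 1.55% of all 32851 windows. Its half-site TGACG, which the full element contains, was in 5 of the 12, against 17.8% of all windows. Of these 5, 3 are windows of Gnas, and 2 of those overlap and hold the same copy, 38 and 57 bases before their starts. The metal response element core, searched as TGCACNC and TGCGCNC, was in 4 of the 12, against 21.4% of all windows. The windows of Gng7 and Adcy5 are shown because these genes had the smallest p-values for diet, and 1 window of Gnas because its probe sets parted along the title number. Capitals mark the half-site, and sequences run 5′ to 3′ on the strand of the gene.
Gng7, first start, chr10:81014926-81015175, minus strand: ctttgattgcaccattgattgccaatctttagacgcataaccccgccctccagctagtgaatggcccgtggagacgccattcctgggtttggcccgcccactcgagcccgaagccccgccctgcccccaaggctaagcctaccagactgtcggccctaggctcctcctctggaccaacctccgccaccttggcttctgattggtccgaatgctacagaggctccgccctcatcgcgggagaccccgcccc
Gng7, second start, chr10:81001366-81001615, minus strand: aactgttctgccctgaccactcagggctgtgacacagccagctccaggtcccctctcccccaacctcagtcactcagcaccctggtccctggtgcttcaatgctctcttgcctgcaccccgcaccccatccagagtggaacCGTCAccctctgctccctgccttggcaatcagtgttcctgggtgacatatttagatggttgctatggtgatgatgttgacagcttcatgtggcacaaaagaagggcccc
Adcy5, chr16:35154614-35154863, plus strand: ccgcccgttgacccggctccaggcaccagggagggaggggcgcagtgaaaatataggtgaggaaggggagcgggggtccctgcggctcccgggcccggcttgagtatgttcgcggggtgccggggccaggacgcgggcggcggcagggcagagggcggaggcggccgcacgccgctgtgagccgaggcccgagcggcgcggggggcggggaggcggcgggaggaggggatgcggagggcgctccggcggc
Gnas, chr2:174329756-174330005, plus strand: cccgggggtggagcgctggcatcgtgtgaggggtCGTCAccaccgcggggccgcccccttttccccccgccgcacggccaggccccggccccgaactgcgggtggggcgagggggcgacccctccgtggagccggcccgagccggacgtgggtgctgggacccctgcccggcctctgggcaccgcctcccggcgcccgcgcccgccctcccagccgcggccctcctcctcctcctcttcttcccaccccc
The half-site was in 1 of the 2 Gng7 windows, where it began 109 bases before the start, and was not in the Adcy5 window. The Gnas window shown held it 216 bases before the start. The metal response element core was in the second Gng7 window and in that of Adcy5. A match describes these letters only. The table of starts gave 4 windows for Gnas, a complex imprinted locus with several alternative first exons.

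The 3 genes of the striatal Golf, gamma-7 and Adcy5 pathway had higher levels in the zinc diet mice, and none of them passed the adjusted threshold. Gng7, the gamma-7 subunit gene, was 1.41-fold higher and Adcy5 was 1.31-fold higher. Gnal, the Golf alpha subunit gene, was 1.23-fold higher on 1439957_at, the probe set that separated the diets. On 1442021_at, the Gnal probe set with the highest mean, the fold was 1.41, but the diets overlapped (limma unadjusted p = 0.13, adjusted p = 0.84). The diet difference was positive for 11 of the 18 member probe sets, against 53% of all probe sets tested. After adjustment in limma, 0 of the 18 had a p under 0.05, where 0% of all probe sets tested did. At an unadjusted p under 0.05 there were 4, all higher, while 3.63% of all probe sets tested were higher at that p and 2.75% lower, 6.38% in all. Of these 4, 2 are probe sets of Adcy5 read in the same 6 mice and are not independent. With the highest-mean probe set of each gene, 2 of the 9 genes, Gng7 and Adcy5, were higher at that p. The share over the 11221 named genes tested was 4.36%. In 3 of the 18, each zinc diet mouse exceeded each control diet mouse, and in 0 the reverse held, against 6.66% and 5.33% of all probe sets tested, or 12% in all. The median log2 difference was 0.04 over the 18 and 0.01 over all probe sets tested. Because the 9 genes were chosen with earlier results of these data known, counts above the shares over all probe sets are not independent evidence. In tissue RNA, a change in the number of cells of a type and a change in RNA per cell cannot be told apart.

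Gng7 was measured by 1 probe set (1455190_at). Its log2 level was 9.68, 9.90 and 9.75 in zinc diet replicates 3, 7 and 10, and 9.17, 9.26 and 9.41 in control diet replicates 1, 9 and 11. The diets did not overlap, and the lowest zinc diet mouse lay above the highest control diet mouse by more than the spread within either diet. Gng7 averaged 9.78 ± 0.11 in zinc diet mice and 9.28 ± 0.12 in control diet mice (SD, n = 3 each), a log2 difference of 0.50 ± 0.098 (SE; 95% interval 0.27 to 0.73; limma adjusted p = 0.41).

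Adcy5, the main cyclase of the striatum, had 4 probe sets, of which 2 were tested. On the brighter 1 (1455296_at), its log2 level was 10.40, 10.66 and 10.52 in zinc diet replicates 3, 7 and 10, and 10.11, 10.12 and 10.17 in control diet replicates 1, 9 and 11. The diets did not overlap, and the zinc diet mice spread more widely than the control diet mice. The means were 10.52 ± 0.13 and 10.13 ± 0.035 (SD, n = 3 each), in zinc diet and control diet mice in that order, with a log2 difference of 0.39 ± 0.088 (SE; 95% interval 0.18 to 0.60; limma adjusted p = 0.49). The second tested probe set (1447696_x_at, of a design that can match unrelated transcripts) read 6.01, 6.56 and 6.40 in zinc diet mice and 6.01, 5.73 and 6.02 in control diet mice. Here zinc diet replicate 3 lay among the control diet mice, and the log2 difference was 0.41 ± 0.16 (SE; 95% interval 0.03 to 0.79; limma adjusted p = 0.77). The difference on this probe set held an unadjusted limma p under 0.05 without zinc diet replicate 3 alone among the 6 fits that left out 1 mouse. The 2 untested Adcy5 probe sets lay between 2.38 and 2.89 in all 6 mice.

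Gnal had 3 probe sets, and 2 were tested. On 1439957_at, its log2 level was 11.18, 11.27 and 11.15 in zinc diet replicates 3, 7 and 10, and 10.91, 10.86 and 10.91 in control diet replicates 1, 9 and 11. Each zinc diet mouse exceeded each control diet mouse, with means of 11.20 ± 0.061 and 10.89 ± 0.031 (SD, n = 3 each) in that order of diets, and the log2 difference was 0.30 ± 0.071 (SE; 95% interval 0.13 to 0.47; limma adjusted p = 0.52). On 1442021_at, the Gnal probe set with the highest mean, levels were 11.98, 11.58 and 11.31 in zinc diet mice, against 11.49, 11.37 and 10.51 in control diet mice. The diets overlapped there, because zinc diet replicate 10 lay below control diet replicates 1 and 9. The log2 difference on 1442021_at was 0.50 ± 0.29 (SE; 95% interval -0.19 to 1.18; limma adjusted p = 0.84), and without control diet replicate 11 it was 0.19. With the title number as a covariate it was 0.47 ± 0.19 (SE; limma unadjusted p = 0.043). The limma adjusted p of this difference was at least 0.48 under every alternative run. The untested Gnal probe set lay at 3.13 to 3.20 in all 6 mice.

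Gnas encodes the Gs alpha subunit and had 5 probe sets, of which 2 were tested. The brightest (1450186_s_at, of a design shared by several transcripts) read 13.50, 13.46 and 13.41 in zinc diet mice and 13.44, 13.52 and 13.53 in control diet mice. The diets overlapped, and the log2 difference was -0.04 ± 0.071 (SE; 95% interval -0.21 to 0.13; limma adjusted p = 0.95). The Gnas interval and that of Gng7 did not overlap; the difference between them was not tested. The other tested Gnas probe set, 1443375_at, differed by -0.27 ± 0.72 (SE) between the diets, with the widest interval of the family.

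The cyclases stimulated by calcium and calmodulin overlapped between the diets on all their tested probe sets. Adcy1 (1456487_at) read 11.57, 11.64 and 11.68 in zinc diet mice and 11.43, 11.70 and 11.64 in control diet mice, a log2 difference of 0.04 ± 0.094 (SE; limma adjusted p = 0.97). Its second tested probe set differed by -0.03 ± 0.18 (SE). Adcy8 read 8.34, 8.10 and 8.14 in zinc diet mice and 8.30, 8.31 and 8.29 in control diet mice. Zinc diet replicates 7 and 10 lay below the control diet mice and replicate 3 above them, and the difference was -0.11 ± 0.087 (SE; 95% interval -0.32 to 0.10; limma adjusted p = 0.87).

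Adcy3, a cyclase known from olfactory cilia and neuronal primary cilia, had 3 tested probe sets of 4. The brightest (1421960_at) read 8.51, 8.51 and 8.58 in zinc diet mice, against 8.34, 8.42 and 8.56 in control diet mice, with a log2 difference of 0.09 ± 0.084 (SE; limma adjusted p = 0.90). Control diet replicate 11 lay among the zinc diet mice. The other 2 tested probe sets differed by -0.03 and -0.06. The fourth (1436929_x_at) was below the filter, and its zinc diet values of 3.92, 3.93 and 3.93 lay just above control diet values of 3.91, 3.78 and 3.84.

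Adcy2, a cyclase stimulated by G protein beta-gamma subunits together with Gs, read 10.08, 10.26 and 9.94 in zinc diet mice and 9.86, 10.10 and 10.20 in control diet mice. The diets overlapped, with a difference of 0.04 ± 0.12 (SE; 95% interval -0.25 to 0.34; limma adjusted p = 0.98). Adcy9, a widely expressed cyclase, overlapped between the diets on all 4 of its probe sets, with log2 differences from -0.04 to 0.20. Its brightest (1419811_at) read 10.15, 10.34 and 10.58 in zinc diet mice and 10.15, 10.24 and 10.39 in control diet mice, a difference of 0.10 ± 0.13 (SE; limma adjusted p = 0.93).

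**Figure D1:**
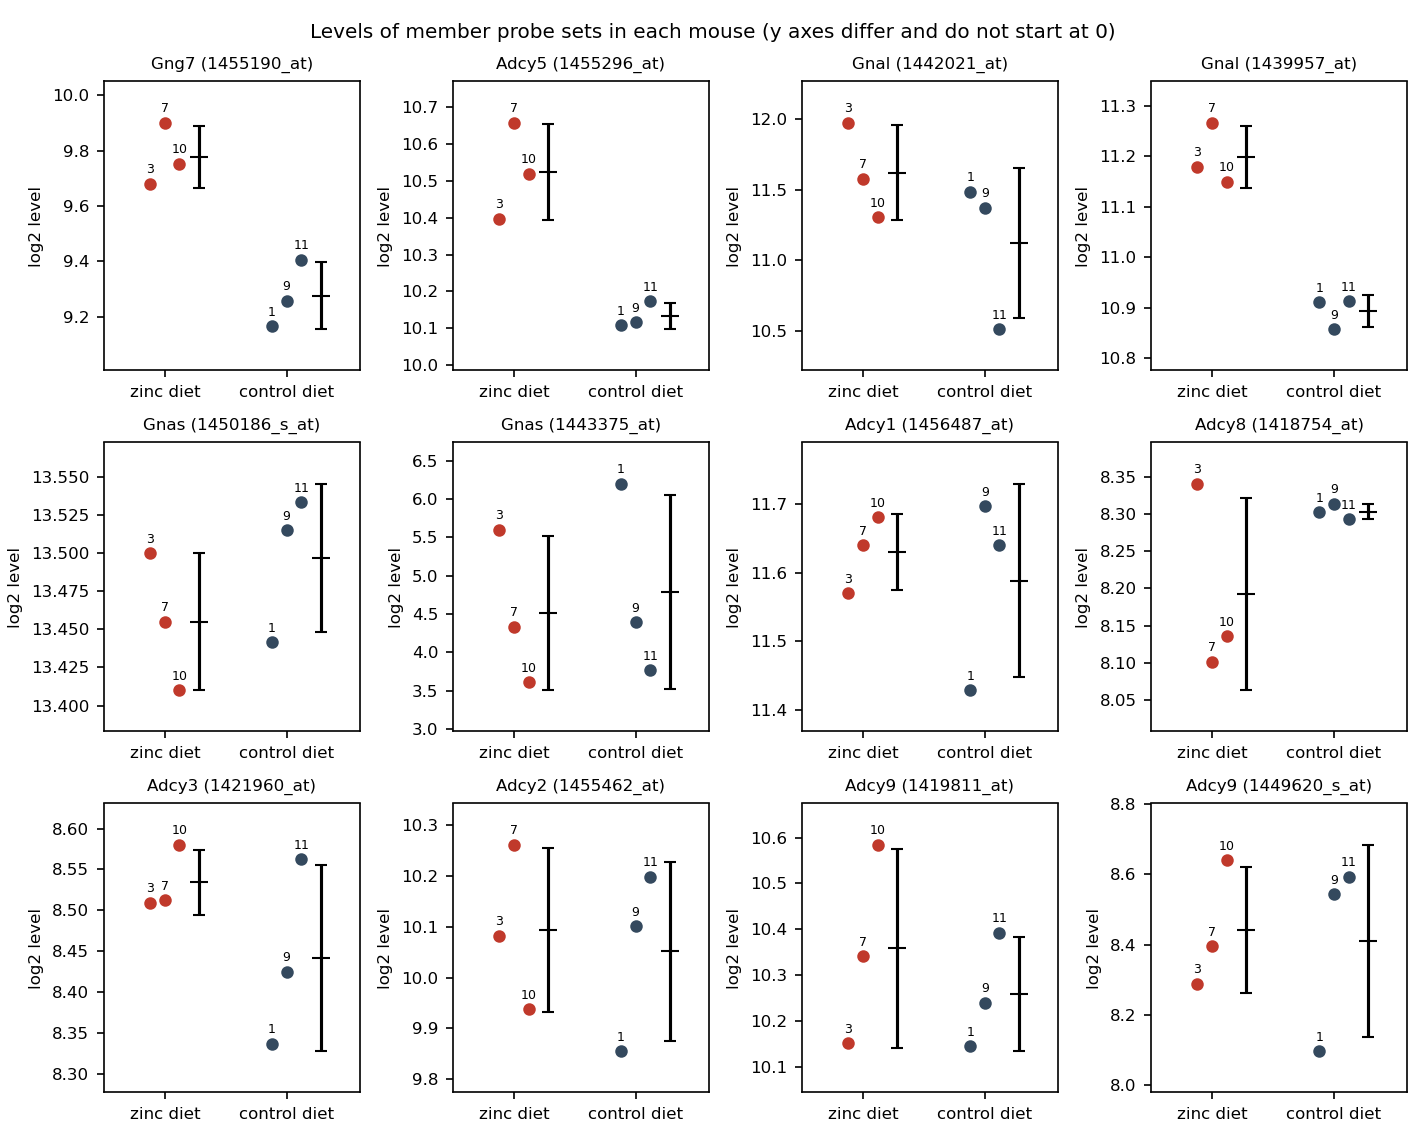
Log2 level (y axis, scale set per panel) of 12 member probe sets in each mouse, zinc diet left and control diet right, with title numbers above the points and the mean ± SD (n = 3) beside them. Gng7, Adcy5 and Gnal 1439957_at separate the diets; in the other 9 panels the diets overlap.

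**Figure D2:**
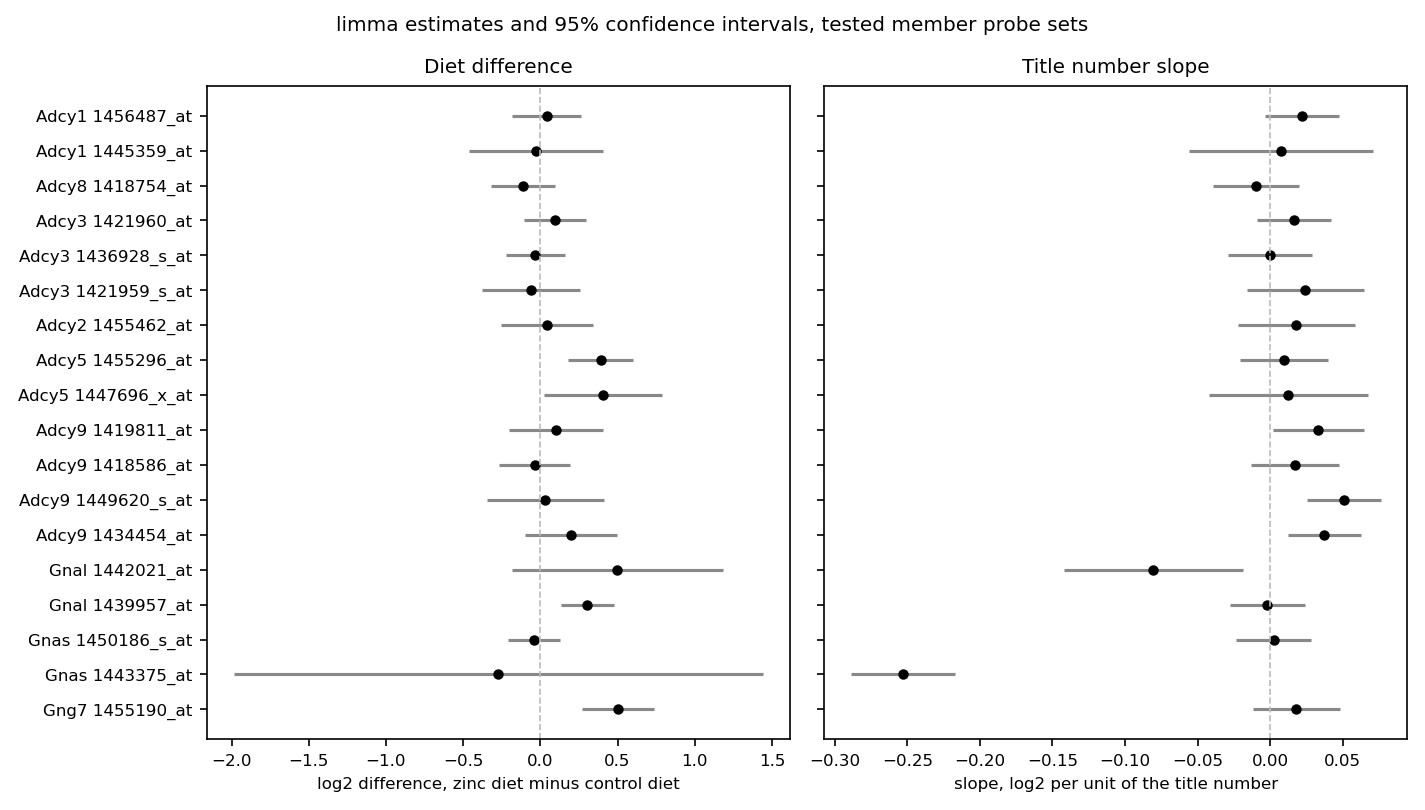
limma estimates (points) with 95% intervals (lines) for the 18 tested member probe sets: the log2 difference zinc diet minus control diet on the left and the slope per unit of the title number on the right. On the left, the intervals of Gng7, both Adcy5 probe sets and Gnal 1439957_at exclude 0; on the right, Gnas 1443375_at stands at -0.25 and the 3 Adcy9 probe sets with unadjusted p under 0.05 at 0.03 to 0.05.

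Genes listed as markers of striatal medium spiny neurons were also higher in zinc diet mice. The tissue was dissected amygdala, and whether these genes mark striatal cells in it was not tested. Of a list of 20, 18 were tested, all 18 were higher in zinc diet mice, 16 of them with no overlap between the diets, and the median log2 difference was 0.90. Of the 11221 named genes tested, with 1 probe set each, 6115 were higher and 911 were higher with no overlap. The list holds none of the 9 genes and was written with earlier results of these data known. Its mean level was 9.07, 9.36 and 9.06 in zinc diet replicates 3, 7 and 10, and 7.93, 8.15 and 8.23 in control diet replicates 1, 9 and 11. The lowest of the 18 was Drd2, the D2 dopamine receptor gene, with means of 5.84 in zinc diet mice and 4.17 in control diet mice. In control diet replicate 1, Drd2 read 3.58 and Scn4b 3.74, and values under 4 cannot be told from background. Rgs9, a striatal regulator of G protein signalling, averaged 7.83 in zinc diet mice and 6.03 in control diet mice, and Ppp1r1b, the DARPP-32 gene, 8.67 and 7.26 in the same order. Gng7, Adcy5 and Gnal (1439957_at) were all highest in zinc diet replicate 7, the mouse with the highest striatal marker level. The brighter Gnal probe set, 1442021_at, was highest in zinc diet replicate 3, at 11.98 against 11.58 in replicate 7. It was lowest, at 10.51, in control diet replicate 11, the control diet mouse with the highest marker level. Zinc diet replicate 7 also had the highest myelin marker level, at 9.96 against 9.34 and 9.20 in zinc diet replicates 3 and 10, and the highest level of inhibitory and central amygdala markers, at 10.41. Within the control diet, Gng7 and Adcy5 (1455296_at) ran in the order of the marker level, with replicate 1 lowest and replicate 11 highest. For Adcy5 that order rests on 10.109 in replicate 1 against 10.116 in replicate 9. The other tested Adcy5 probe set, 1447696_x_at, did not run in that order, with replicate 9 lowest at 5.73. Neither tested Gnal probe set did. Among zinc diet mice the marker level was 9.058 in replicate 10 and 9.066 in replicate 3, while Gng7 and Adcy5 were lower in replicate 3. Gnal 1439957_at ran in the marker order there. The part of these markers in the member differences was not tested.

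**Figure D3:**
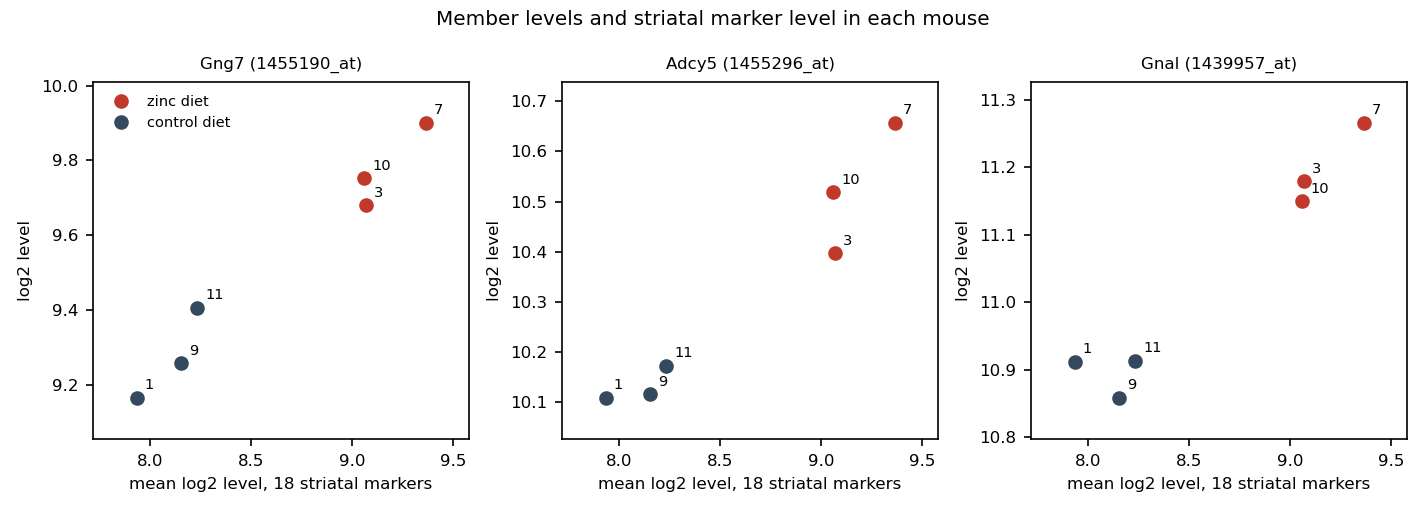
Log2 level of Gng7, Adcy5 and Gnal (y axes) against the mean log2 level of 18 striatal markers (x axis), 1 point per mouse labelled with its title number. Each panel shows the probe set of the gene with the smallest p for diet, which for Gnal is 1439957_at. Gnal 1442021_at, not shown, was highest in zinc diet replicate 3. Zinc diet mice lie at marker levels of 9.06 to 9.36 and control diet mice at 7.93 to 8.23, and zinc diet replicate 7 is highest on both axes in every panel.

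Other cell types were read in the same way. Myelin and oligodendrocyte markers (11 of 12 tested) were all higher in zinc diet mice, with mean levels of 9.20 to 9.96 in zinc diet mice and 8.81 to 9.38 in control diet mice, so that the diets overlapped. Markers of inhibitory and central amygdala neurons lay at 10.32 to 10.41 in zinc diet mice and 10.08 to 10.29 in control diet mice, without overlap, and 9 of the 11 were higher. The mean of the excitatory neuron markers overlapped between the diets (9.18 to 9.37 in zinc diet mice and 9.19 to 9.26 in control diet mice), while single members differed in both directions. At an unadjusted limma p under 0.05, 3 of 11 were higher and 2 lower, and the diets did not overlap for 2 that were higher and 3 that were lower. The log2 differences were 0.77 for Rspo2, 0.67 for Neurod6, 0.41 for Tbr1, -0.43 for Lmo3 and -0.36 for Neurod1, in the range of those of Gng7, Adcy5 and Gnal or beyond it, and 0 of the 11 passed the adjusted threshold. The diets also overlapped in the means of microglia markers (8.08 to 8.14 and 8.06 to 8.16) and endothelial and pericyte markers (7.40 to 7.47 and 7.23 to 7.42), in zinc diet and control diet mice in that order. Astrocyte markers lay between 10.98 and 11.15 in all 6 mice. Choroid plexus markers read 5.52 to 6.31 in zinc diet mice and 5.87 to 8.83 in control diet mice, with control diet replicate 9 at the top. Without control diet replicate 9, the log2 differences were 0.49 for Gng7, 0.38 for Adcy5 and 0.29 for Gnal (1439957_at). The part of these cell types was not tested either.

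The genes with the most similar profiles were found by the root mean square distance between centred log2 values over the 6 arrays, which describes likeness over these mice only. For Gng7 they were Chst15 (distance 0.044), Prkd1 (0.052) and Hpca (0.055). For Adcy5 they were Id4 (0.037), Gcnt2 (0.051) and Rgs7bp (0.053). For Gnal, whose probe set with the highest mean (1442021_at) was used, they were Rorb (0.075), Asap1 (0.077) and Ammecr1l (0.11). For the Gnal probe set that separated the diets they were Zscan12 (0.026), Pcp4 (0.029) and Robo1 (0.033), a search added after the values were seen. The root mean square of the centred values was 0.44 for 1442021_at and 0.16 for 1439957_at. That difference in spread alone keeps the nearest genes of the 2 probe sets apart, so nothing is read from their lack of overlap.

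The rest of the pathway was described from lists of genes, also chosen with earlier results of these data known, with 1 probe set per gene. At this level, 4.36% of the 11221 named genes tested were higher at an unadjusted limma p under 0.05, and 0 genes of any list passed the adjusted threshold. Among receptors coupled to Gs or Golf, 10 of 21 genes were tested, 2 were higher at that unadjusted p and 0 lower, with a median log2 difference of 0.08. Drd1, the D1 dopamine receptor gene, read 10.14, 10.28 and 9.97 in zinc diet mice and 9.57, 9.51 and 9.22 in control diet mice, a log2 difference of 0.70 ± 0.13 (SE; limma adjusted p = 0.38). The orphan receptor gene Gpr6 differed by 2.35 ± 0.28 (SE; limma adjusted p = 0.22). Both belong to the striatal marker list as well. Htr4 (0.49 ± 0.21 SE), a serotonin receptor gene, and Gpr12 (0.16 ± 0.11 SE) came next, with the diets overlapping.

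Ric8b, the chaperone known to stabilise Golf and Gs alpha subunits, read 9.10, 9.08 and 9.05 in zinc diet mice and 8.55, 8.84 and 8.88 in control diet mice. Its diets did not overlap, and the log2 difference was 0.32 ± 0.10 (SE; limma adjusted p = 0.70). It was the 1 gene with an unadjusted p under 0.05 of the 4 tested in its list, in which Ric8a, Cap1 and Cap2 differed by -0.0016, -0.0080 and 0.05. Of the other adenylyl cyclases, Adcy4 and Adcy10 were not tested. Adcy7 read 7.96, 8.03 and 7.84 in zinc diet mice and 7.70, 7.55 and 7.83 in control diet mice, with no overlap but a gap of under 0.01 between zinc diet replicate 10 and control diet replicate 11. Its log2 difference was 0.25 ± 0.10 (SE; limma adjusted p = 0.78), and that of Adcy6, the closest relative of Adcy5, was -0.15 ± 0.081 (SE; limma adjusted p = 0.82).

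The other G protein subunits had no gene with an unadjusted p under 0.05. The list of other alpha subunits had 9 tested genes, 5 higher and 4 lower, with a median log2 difference of 0.01, and Gnai2 at -0.15 ± 0.10 (SE) had its smallest p. The 4 tested beta subunits, 2 higher and 2 lower, had a median of -0.0061. Gnb5 at 0.12 ± 0.082 (SE) had the smallest p among them, and Gnb1 was at 0.02 ± 0.079 (SE). The 7 other gamma subunits tested had a median of 0.03, and Gng12 at 0.09 ± 0.067 (SE) was the 1 among them whose diets did not overlap. Gng7 therefore had the largest log2 difference of the gamma subunits tested, a ranking and not a test of the difference between them.

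Downstream of cyclic AMP, 12 of 12 genes of protein kinase A, its inhibitors and anchors were tested, of which 2 were higher at an unadjusted p under 0.05, with a median log2 difference of 0.01. Akap5, the anchoring protein of the postsynaptic density, differed by 0.36 ± 0.13 (SE; limma adjusted p = 0.75), and Prkar2b, the neuronal type II regulatory subunit, by 0.23 ± 0.097 (SE; limma adjusted p = 0.78). The diets did not overlap for Akap5 and overlapped for Prkar2b. Among cyclic AMP response factors, 7 of 8 were tested, 5 higher and 2 lower, with a median log2 difference of 0.03. Crem, which also gives the inducible repressor ICER, differed by 0.36 ± 0.12 (SE; limma adjusted p = 0.72). Crtc3, next by p, was lower at -0.19 ± 0.090 (SE; limma adjusted p = 0.81), and Creb1 was at 0.08 ± 0.070 (SE). The Epac gene tested, Rapgef3, differed by -0.18 ± 0.13 (SE).

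Along the title number, 1 Gnas probe set fell more steeply, relative to its error, than any other of the 22877 probe sets tested. Gnas 1443375_at read 6.20, 5.60, 4.34, 4.39, 3.61 and 3.77 in the mice with title numbers 1, 3, 7, 9, 10 and 11. Numbers 3, 7 and 10 are zinc diet mice and numbers 1, 9 and 11 control diet mice, so the diets are mixed along that order, and the level was highest at the lowest 2 numbers and under 4 at the highest 2. With diet in the model, the slope was -0.25 ± 0.015 log2 units per unit of the number (SE; limma adjusted p = 0.045). The values under 4 cannot be told from background, so no fold is given, and with values under 4 set to 4 the slope was -0.23 and the call was lost (limma adjusted p = 0.12). It was the 1 probe set of 22877 past the adjusted threshold for the title number, or 0.00437%.

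The call was sensitive while the slope was not. Over the fits that left out 1 mouse, the Gnas slope stayed between -0.29 and -0.24, and the limma adjusted p was above 0.05 in each except the fit without control diet replicate 9. That p was 0.17, 0.16 and 0.37 when zinc diet replicates 3, 7 and 10 were left out in turn, and 0.34 and 0.48 when control diet replicates 1 and 11 were. It was 0.052 with no diet term and 0.12 with the rank of the number in its place. With the title number in the model, the diet difference of this probe set was -0.36 ± 0.11 (SE; limma unadjusted p = 0.016, adjusted p = 0.56).

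The brightest Gnas probe set did not follow this pattern, and a dim one ran in nearly the same order. The brightest, 1450186_s_at, read 13.44, 13.50, 13.46, 13.52, 13.41 and 13.53 in the same order of numbers, a slope of 0.0025 ± 0.011 (SE; limma adjusted p = 0.98). The intervals of the 2 slopes did not overlap. Gnas 1453413_at, just below the filter, read 4.39, 4.14, 3.99, 3.84, 3.56 and 3.67 along the numbers, and differed from 1443375_at in the order of numbers 7 and 9 alone. The other 2 untested Gnas probe sets lay between 3.19 and 3.95. The genes nearest in profile to Gnas 1443375_at, searched for after its values were seen, were Wdfy3 (distance 0.29), Ednrb (0.31) and Dnmt3a (0.34), with slopes of -0.22, -0.21 and -0.19.

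Slopes along the title number were positive for 13 of the 18 member probe sets, against 53.7% of all probe sets tested. In 5 of the 18 the slope had an unadjusted limma p under 0.05 for the title number, 3 of them positive and 2 negative, against 10.2% of all probe sets tested. Of all probe sets tested, 3.86% had positive slopes and 6.39% negative slopes at that p, 882 and 1461 probe sets, and after median centring of each array 1234 and 1272. The 3 positive slopes were all of Adcy9. Adcy9 1449620_s_at read 8.10, 8.29, 8.40, 8.54, 8.64 and 8.59 along the numbers, with a slope of 0.051 ± 0.010 (SE; limma adjusted p = 0.22), and Adcy9 1434454_at and 1419811_at had slopes of 0.037 ± 0.010 and 0.033 ± 0.013 (SE). The fourth Adcy9 probe set (1418586_at) had a slope of 0.017 ± 0.012 (SE), so that all 4 were positive and 0 passed the adjusted threshold. Negative slopes at an unadjusted limma p under 0.05 were unevenly spread over the array, at 2.31% among the probe sets with the highest mean of each named gene (259 of 11221) and 10.3% among the rest (1202 of 11656). Gnas 1443375_at is among the rest. The Adcy9 probe sets share a gene and the same 6 mice and are not independent.

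The second negative slope was that of Gnal 1442021_at, which read 11.49, 11.98, 11.58, 11.37, 11.31 and 10.51 along the numbers. Its slope was -0.080 ± 0.025 (SE; limma adjusted p = 0.37), and without control diet replicate 9 it was -0.097 with a limma adjusted p of 0.037. It was -0.12 without control diet replicate 1 and -0.050 without control diet replicate 11. Within each diet the level was lowest at the highest number. Gnal 1439957_at had a slope of -0.0021 ± 0.011 (SE). For Gng7, Adcy5 (1455296_at), Adcy1 (1456487_at), Adcy2, Adcy3 (1421960_at) and Adcy8 the slopes lay between -0.0096 and 0.022, with limma unadjusted p from 0.079 to 0.47.

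**Figure D4:**
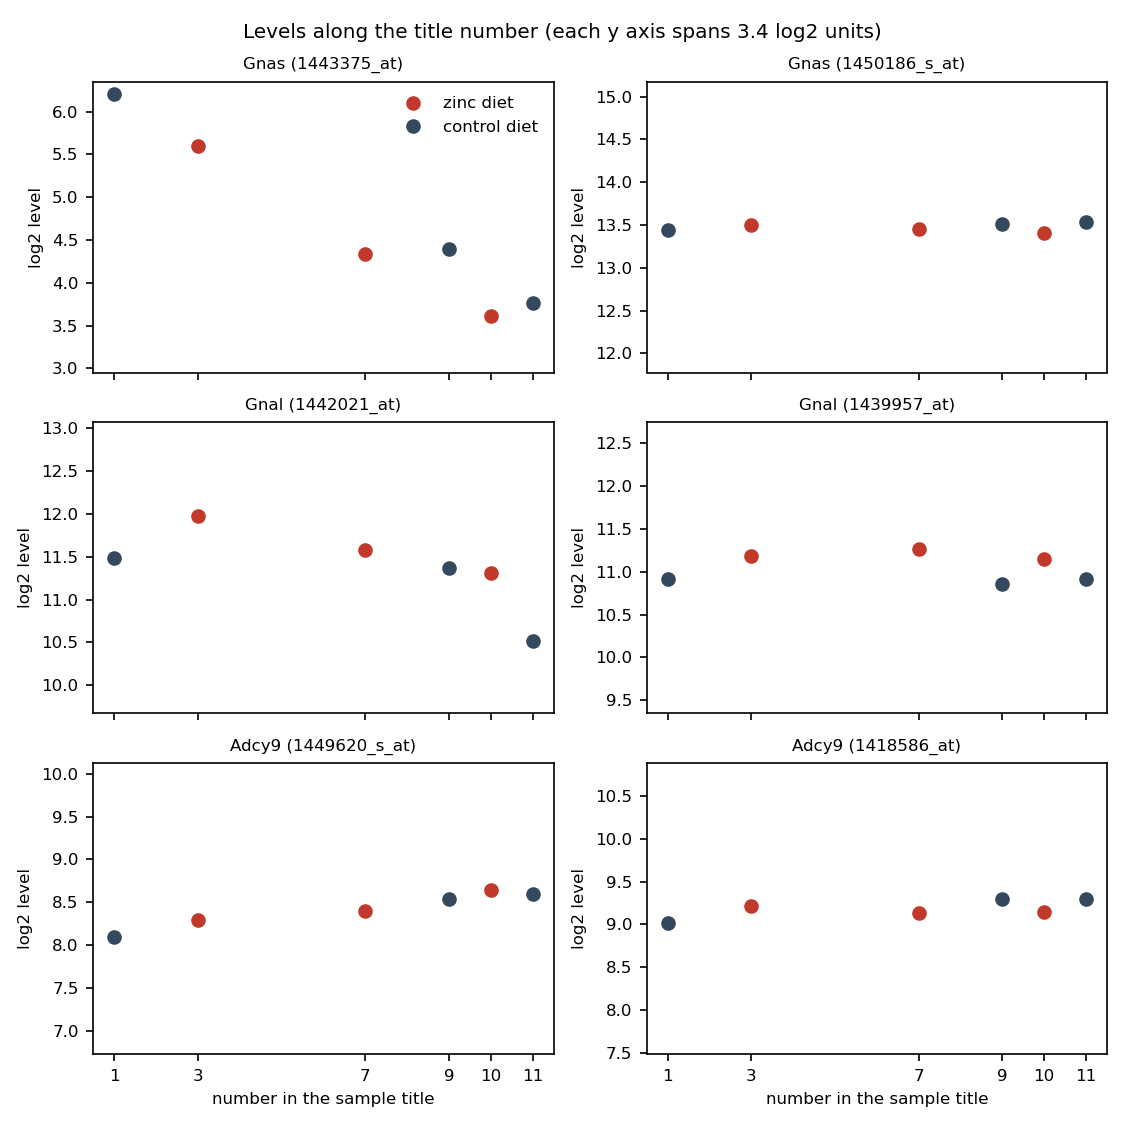
Log2 level (y axis, spanning the same range in each panel) of 2 probe sets each of Gnas, Gnal and Adcy9 against the number in the sample title (x axis), 1 point per mouse coloured by diet. Gnas 1443375_at goes down along the numbers, with 6.20 at number 1 and 3.77 at number 11, whereas Gnas 1450186_s_at stays between 13.41 and 13.53.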

How the data were processed

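Levels of RNA in amygdala were deposited by the authors as 1 table of log2 values, 1 column per mouse, whose scale was inferred from the range of the values. The submitters' processing notes name GCRMA 2.28.0 and R 2.15.1. Options, filters and centring are not given in the sources used here. Per the labels' protocols, 500 ng of RNA was labelled with biotin for 1-colour arrays. No detection calls were used, so low values cannot be told from background. Of 45101 probe sets, 64 controls were left out. The platform annotation named 34945 of the rest with 1 symbol, 932 with several and 9160 with none, and the 25 member probe sets all had 1.

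Probe sets with a mean log2 level of at least 4 were tested with limma 3.58.1 in R 4.3.3 (lmFit, eBayes, two-sided, Benjamini-Hochberg over 22877 probe sets): diet alone, and title number with diet. The limma fits were tested on simulated data. Replicates are separate mice, named by title number, and the number of arrays limits precision. Lists used the probe set of a gene with the highest mean. The members, lists and naming rule were chosen with earlier results of these data known. The rule gave every mouse's value for each member's brightest probe set and for others with an unadjusted p under 0.05 or no overlap, up to 4 genes per pathway list and the 3 nearest genes to Adcy5, Gnal and Gng7; other values were chosen after they were seen. Alternatives covered filters, normalization, priors, weights, a floor, covariates and leaving out each mouse.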

Additional observations from a re-analysis of the deposited data

How the results depend on the processing

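Gng7, both tested Adcy5 probe sets and both tested Gnal probe sets kept a positive diet difference under every alternative run, and 0 member probe sets passed the adjusted threshold for diet in any. Leaving out each mouse in turn, the log2 difference ran from 0.44 to 0.57 for Gng7, 0.33 to 0.46 for Adcy5 1455296_at and 0.27 to 0.33 for Gnal 1439957_at. No paired analysis was run because the labels name no pairs of mice. The diets share no title number, but the meaning of that number is not given.

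Over all probe sets, the count past the adjusted threshold for diet was 0 (1460 at an unadjusted p under 0.05 in limma), and it was 2 with a mean level of at least 6, 3 with trend and robust eBayes, 1 with 1 probe set per gene and 1 with the title number as a covariate. The unadjusted count was 2429 with no filter, 2345 with array weights, 937 with 1 probe set per gene and 853 to 2241 leaving out 1 mouse. Member probe sets at that p numbered 4 for diet, 2 with 1 probe set per gene, 7 with the title number as a covariate and 3 to 4 leaving out 1 mouse.

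For the title number, the adjusted count of 1 became 3 with no filter, 8 with trend and robust eBayes, and 0 with a mean of at least 6, values under 4 set to 4, 1 probe set per gene, no diet term or the rank of the number. It was 0 to 165 leaving out 1 mouse, with 165 without control diet replicate 9. The unadjusted count of 2343 became 4070 with no filter, 1398 with a mean of at least 6 and 881 with 1 probe set per gene, and ran from 1640 to 2716 leaving out 1 mouse. Members at an unadjusted p under 0.05 numbered 5, 2 with 1 probe set per gene and 3 to 6 leaving out 1 mouse. Members past the adjusted threshold numbered 1, 0 under the same 5 settings and 0 to 2 leaving out 1 mouse. Gnas 1443375_at had slopes of -0.23 with values under 4 set to 4 (limma adjusted p = 0.12), -0.25 with no diet term and -0.53 per rank (limma adjusted p = 0.12), and it is not in the fits with a mean of at least 6 or 1 probe set per gene.

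Small diet differences changed sign: Adcy9 1449620_s_at was -0.059 with array weights and -0.13 to 0.12 leaving out 1 mouse. In the same fits Adcy1 1456487_at ran from -0.038 to 0.096, Adcy1 1445359_at from -0.17 to 0.14, Adcy3 1436928_s_at from -0.066 to 0.013, Adcy3 1421959_s_at from -0.20 to 0.044, Adcy2 1455462_at from -0.056 to 0.12, Adcy9 1419811_at from -0.013 to 0.20, Adcy9 1418586_at from -0.13 to 0.0098 and Gnas 1443375_at from -0.81 to 0.44. Slopes near 0 changed sign too: Adcy3 1436928_s_at was 0.0013 after quantile normalization, 0.0031 after median centring and 0.0047 per rank, and Gnal 1439957_at was 0.0012 after median centring. With array weights the slopes were -0.039 for Adcy1 1445359_at, -0.0031 for Adcy3 1421959_s_at, -9.0e-05 for Adcy2 and -0.0059 for Gnas 1450186_s_at. Leaving out 1 mouse, slopes ran from -0.072 to 0.029 for Adcy1 1445359_at, -0.029 to 0.00060 for Adcy8, -0.012 to 0.0055 for Adcy3 1436928_s_at, -0.022 to 0.038 for Adcy3 1421959_s_at, -0.012 to 0.035 for Adcy2, -0.012 to 0.067 for Adcy5 1447696_x_at, -0.0097 to 0.027 for Adcy9 1418586_at, -0.0050 to 0.0011 for Gnal 1439957_at and -0.011 to 0.0074 for Gnas 1450186_s_at. Where a value moved, the cause was not tested.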
